A study of Rattus norvegicus with 20 samples.

Results

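Thbd, the gene of thrombomodulin, and 6 further genes of blood clotting and clot removal (Fgl2, F3, Vwf, Plat, Plau and Plaur) were followed in primary cultures of neonatal rat heart cells given diclofenac. The 7 genes were chosen by the gene names in the scanner files, checked against the description of each probe, and the set was put together because Thbd was higher and Fgl2 lower at 24 h than at 6 h of treatment. They are 7 of the 30505 genes measured. The arrays carried 10 probes for them, of which 9 passed the filter on dim probes, and each of the 7 genes had at least 1 probe that passed. Since the change from 6 h to 24 h picked the set, it is described for these genes without a test. The comparisons with untreated cultures use the same 24 h arrays, so they are not independent of that choice.

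Clotting is held in check and set off by proteins on cell surfaces. Thrombomodulin, a receptor on endothelial cells, binds thrombin and turns it from a clotting enzyme into an activator of the anticoagulant protein C. F3 encodes tissue factor, the membrane receptor that starts the clotting cascade with factor VII, and the membrane form of the Fgl2 protein can cut prothrombin to thrombin. Vwf encodes von Willebrand factor, which tethers platelets to the injured vessel wall and carries factor VIII. Clots are dissolved by plasmin, which tissue plasminogen activator (Plat) and urokinase (Plau) release from plasminogen, and Plaur encodes the receptor that holds urokinase at the cell surface. In the heart, thrombomodulin and von Willebrand factor are known as products of the endothelium of vessels and heart chambers, and tissue factor is also present in the muscle cells.

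The labels name the cells as cardiomyocytes from hearts of rat neonates, grown for 1 day in DMEM medium before treatment, and every group shared this source. There were 2 arrays of untreated cells, where the series text speaks of 3 replicates. The drug was diclofenac, an anti-inflammatory inhibitor of the cyclooxygenases. It was used at 3 strengths (a reference concentration, called 1, and 1/5 and 1/25 of it), each for 6 h and for 24 h, and each of these 6 groups had 3 arrays. The labels give no strain, no molar value of the reference concentration and no time for the untreated cultures, so in comparisons with them the drug cannot be told apart from the time spent in culture. Whether replicates came from separate cultures or animals is not said, so p-values cover only the spread among these arrays, which may be technical.

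All 11 cardiomyocyte markers measured were well above background on all 20 arrays. Markers of other cells were measured too, among them 13 of endothelium, 11 of macrophages and leukocytes and 9 of fibroblasts. Between 64.1% and 88.2% of the spots of an array were well above background (median 83.7%), fewest on replicate 3 of 1/5 for 24 h. The 75th percentile of that array's signal was 3165 against 9623 to 21937 on the others, and the values of Thbd, F3, Vwf and Plau that rest on it are given with and without it. Arrays lay on 6 slides read on 3 scan days. Slide 1 held both untreated arrays with 2 arrays of concentration 1 for 6 h. No slide and no scan day held untreated arrays together with arrays of 24 h or of 1/25 for 6 h, so in those comparisons slide and scan day cannot be told apart from the groups. The same holds for 24 h against 6 h at concentrations 1 and 1/5, which shared no slide and no scan day. At 1/25 the 24 h and 6 h arrays shared scan day 2 but no slide, and slide 4 set 24 h and 6 h side by side only at different concentrations.

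The first 30 of the 60 bases of each probe are printed for the genes chosen for their change and for the gene whose probes disagreed. They are given 5′ to 3′ as the array files list them, with positions on build rn3. Exon and UTR were not assigned, since an annotation of that build was not used here.
Thbd, probe A_43_P15023, chr3:137064542-137064601, minus strand: tggagtttagctagaacacaagcaaagcct
Fgl2, probe A_44_P177169, chr4:9177878-9177937, minus strand: atactttgaaggccaatgctagacccaaag
Fgl2, probe A_44_P144232, chr4:9179105-9179164, minus strand: cttctgaccaagagtaaggaaatgattttg
Fgl2, probe A_44_P179165, chr4:9177094-9177153, minus strand: gctttttaaaaaagaaaaagaagattttga
Vwf, probe A_44_P1025918, chr4:162098933-162099422, plus strand: actattgccagggaaagtgcgccagcaaag
Vwf, probe A_43_P15902, chr4:162054469-162054528, plus strand: caacggatggctaggtatttcacccgctat
The first Fgl2 and the first Vwf probe were the brightest of their gene that passed the filter and stand for the gene below. The position of the first Vwf probe spans 490 bases of the genome for 60 bases of probe. Of the 60 bases, 13 are G or C in the last Fgl2 probe, against 22 in the Thbd probe and 30 in the first Vwf probe. F3, Plat, Plau and Plaur had 1 probe each, on chr2:218345287-218345345, chr16:73717667-73717812, chr15:3680711-3680770 and chr1:79791146-79791205, and that of Plat was spotted 10 times.

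Against untreated cultures, 2 of 42 tests of the 7 genes (6 treated groups each) passed the threshold, and both were lower signals at 1/5 for 24 h: Fgl2, and Plaur, the urokinase receptor. Thbd was higher than untreated by about the same amount at all 3 concentrations at 24 h, and none of these 3 differences passed. The test was limma's moderated test over all 20 arrays, with p-values adjusted by Benjamini-Hochberg over all genes of a comparison and a threshold of 0.05. Of all genes tested, 0.184% were called at 1/5 for 24 h, 0.00328% at 1 and 0.00328% at 1/25. At 6 h the shares were 0.00656% at concentration 1, 0% at 1/5 and 0% at 1/25, and 0 of the 7 genes were called. At an unadjusted p under 0.05, 13 of the 42 tests passed, beside 8.68% of the tests of all genes over the 6 comparisons. For all genes that share was 4.56%, 30.4% and 13.4% at 1, 1/5 and 1/25 for 24 h. All 6 comparisons share the same 2 untreated arrays. Scaling to the array median in place of the 75th percentile moved the median change of all genes by up to 0.52 on the log2 scale (from -0.12 to 0.40 at 1/5 for 24 h), so changes are best read against that of all genes.

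**Figure D1:**
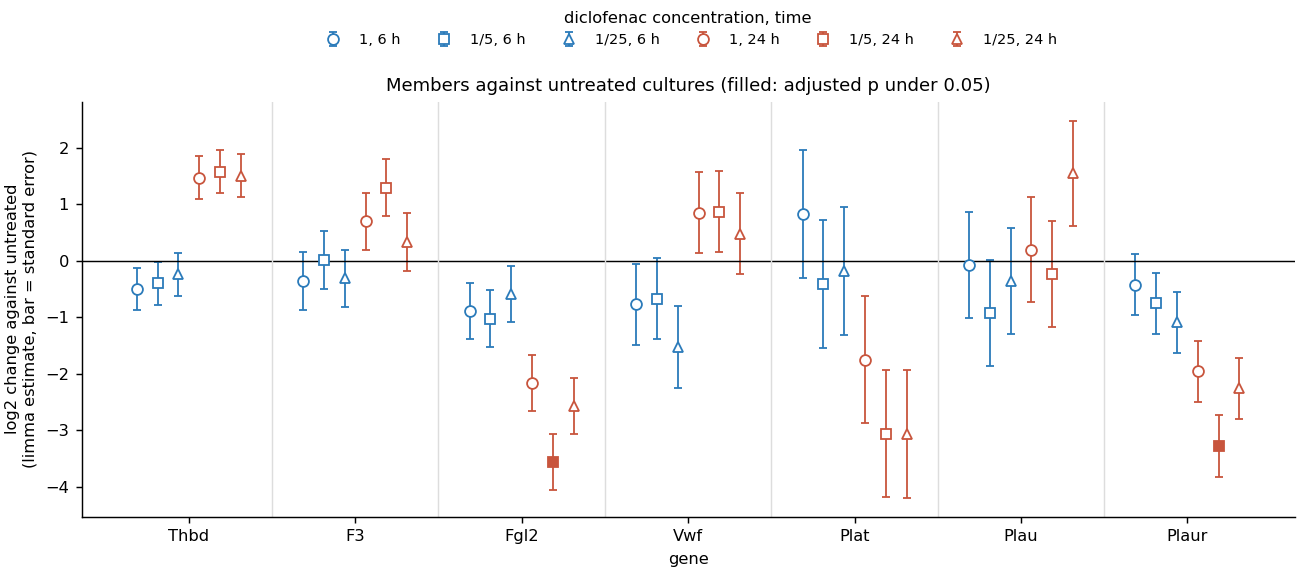
Log2 change against untreated cultures (vertical axis, limma estimate with its standard error) for each of the 7 genes in the 6 treated groups, blue for 6 h and red for 24 h, with circles for concentration 1, squares for 1/5 and triangles for 1/25. Filled symbols passed an adjusted p of 0.05: only Fgl2 (-3.56) and Plaur (-3.27) at 1/5 for 24 h are filled, while Thbd at 24 h lies between 1.47 and 1.58.

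Thbd, the receptor that turns thrombin toward anticoagulation, had its 9 highest values on the 9 arrays at 24 h. Its normalized signal is the log2 of the scanner's signal minus the array's 75th percentile. In untreated cultures it was -0.61 and -0.31. At 6 h it was -0.83, -1.09 and -0.96 at concentration 1, -0.90, -0.51 and -1.17 at 1/5, and -0.78, -0.48 and -0.84 at 1/25. The 6 h values overlapped those of untreated cultures, with 7 of 9 below both. At 24 h it was 1.18, 0.81 and 1.03 at concentration 1, 0.66, 0.68 and 2.01 at 1/5, and 1.07, 0.83 and 1.24 at 1/25. All 9 arrays at 24 h lay above both untreated arrays, a separation from untreated, in either direction, that 9.4% of genes showed. They also lay above all 9 arrays at 6 h, a separation found in 0.591% of genes, but Thbd was picked on that contrast and nothing is read from it.

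The 24 h minus 6 h difference in Thbd was 1.97 (3.92-fold), 1.98 (3.94-fold) and 1.74 (3.35-fold) at 1, 1/5 and 1/25, each with a standard error of 0.339 in the fit. On slide 4, which held the 3 arrays of concentration 1 for 24 h and 1 array of 1/25 for 6 h, the difference was 1.85. Within scan day 2, 24 h minus 6 h at 1/25 was 1.77. The value of 2.01 at 1/5 came from the array with the low overall signal: its Thbd signal before scaling was 12742, against 15205 and 20962 on the other arrays of the group and 11842 and 12443 in untreated cultures. Without that array the difference at 1/5 was 1.53.

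Against untreated cultures, Thbd at 24 h was higher by 1.47 (95% interval 0.67 to 2.27, adjusted p = 0.533 in limma's test), 1.58 (0.78 to 2.38, adjusted p = 0.102) and 1.51 (0.71 to 2.31, adjusted p = 0.25) at 1, 1/5 and 1/25. At 6 h the differences were -0.50, -0.40 and -0.24, and within slide 1 that of concentration 1 was also -0.50. Leaving out replicate 3 of 1/5 for 24 h brought Thbd past the threshold at concentration 1 (adjusted p = 0.044) and at 1/25 (0.0348), with 1.13 at 1/5 (0.0968). That array belongs to neither concentration 1 nor 1/25, so their differences stayed at 1.47 and 1.51. Only the spread estimated over all groups and the adjustment changed. Leaving out replicate 2 of 1/5 for 24 h brought 1/5 past the threshold (1.80, adjusted p = 0.0136), with the array of low overall signal kept. In the order of the 7 group means, the only neighbours further apart than the pooled spread within groups (0.36) were 24 h at concentration 1 and untreated. The 3 groups at 24 h differed from each other by 0.04 to 0.11 and could not be ordered.

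**Figure D2:**
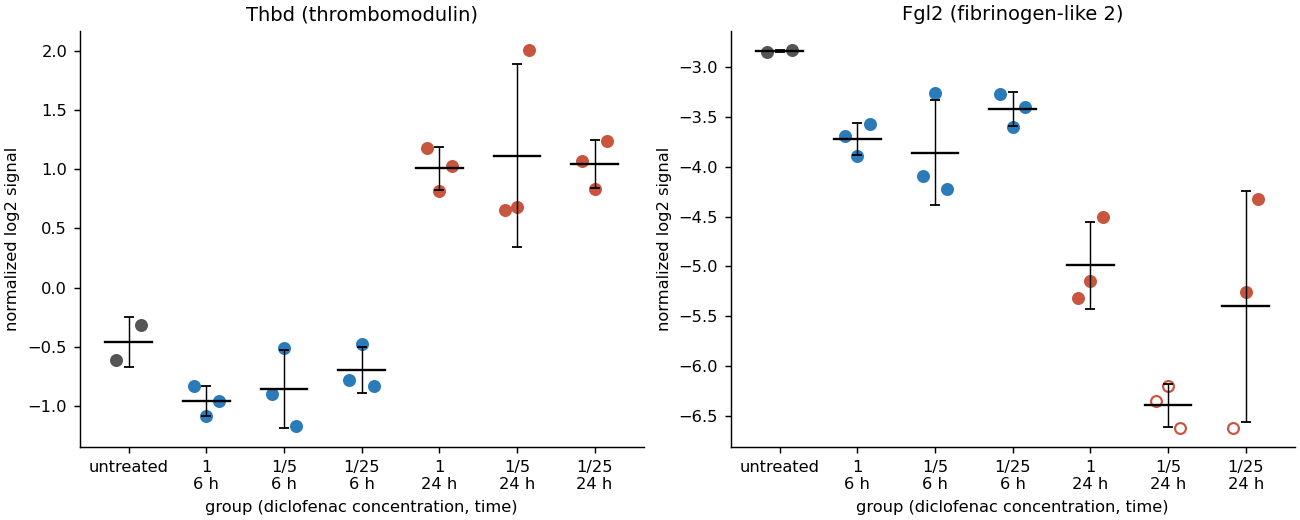
Normalized log2 signal (vertical axis) of Thbd (left) and Fgl2 (right) on each array, by group, with grey for untreated, blue for 6 h and red for 24 h. Bars are group means with SD over 2 untreated or 3 treated arrays, and open symbols mark arrays where the probe was not well above background. The 24 h values of Thbd lie at 0.66 or higher and all other values at -0.31 or lower, while Fgl2 is highest in untreated cultures and lowest at 1/5 for 24 h.

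F3, which encodes tissue factor, was well above background on all 20 arrays. Its normalized signal was -1.31 and -1.70 in untreated cultures and ran from -2.15 to -1.35 over the 9 arrays at 6 h, with a median of -1.72. At 24 h it was -1.33, -0.18 and -0.89 at concentration 1, -0.55, -1.07 and 0.99 at 1/5, and -1.07, -1.84 and -0.61 at 1/25. On 8 of 9 arrays at 24 h it lay above all arrays at 6 h, and the groups overlapped through replicate 2 of 1/25. The 24 h minus 6 h difference was 1.06, 1.28 and 0.64, and the 0.99 at 1/5 came from the array with the low overall signal, without which the difference there was 0.68. On slide 4 it was 0.76, and within scan day 2 at 1/25 it was 0.75. Against untreated cultures the 24 h differences were 0.70, 1.29 (95% interval 0.22 to 2.37, adjusted p = 0.13 in limma's test) and 0.33. Without replicate 2 of 1/5 for 24 h the difference at 1/5 was 1.72 and passed (adjusted p = 0.0177), and without replicate 3 it was 0.69 (adjusted p = 0.324). The only neighbouring group means further apart than the pooled spread of 0.56 were 1/5 and concentration 1 at 24 h, 0.59 apart with overlapping arrays.

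Fgl2, whose membrane protein can act as a prothrombinase, had its highest signal in untreated cultures. Its normalized signal there was -2.84 and -2.83. After 6 h it was -3.69, -3.89 and -3.57 at concentration 1, -4.09, -3.25 and -4.22 at 1/5, and -3.26, -3.60 and -3.40 at 1/25. All 9 arrays at 6 h lay below both untreated arrays, a one-sided separation found in 1.2% of genes, and none of the 3 groups at 6 h passed the test (differences of -0.88, -1.02 and -0.58). After 24 h it was -5.32, -5.15 and -4.50 at concentration 1, -6.35, -6.20 and -6.63 at 1/5, and -6.62, -5.26 and -4.32 at 1/25. The 24 h values lay below all other arrays, as the choice of Fgl2 on 24 h against 6 h implies in part. All 24 h arrays lay to one side of untreated in 9.4% of genes and of 6 h in 0.591%. The probe was not well above background on any of the 3 arrays of 1/5 for 24 h, nor on replicate 1 of 1/25, so the values there are bounds.

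Against untreated cultures Fgl2 fell at 1/5 for 24 h, by 3.56 on the log2 scale (standard error 0.498, adjusted p = 0.0105 in limma's test). Counted against the lowest signal well above background on those arrays, this is at least 6.42-fold lower on the scale of the processed signal. With the normexp background the difference was -2.07, and over 16 alternatives it ran from -3.75 to -2.07. At concentration 1 it was lower by 4.46-fold (log2 difference -2.16, adjusted p = 0.333) and at 1/25 by 5.92-fold (-2.57, adjusted p = 0.171), and neither passed. The call held in 12 of 16 alternatives. It was lost without untreated replicate 1 (difference of -3.57) or replicate 2 (-3.55), with array weights, and with only the groups compared (adjusted p = 0.561 in limma's test). Without replicate 3 of 1/5 for 24 h, the array with the low overall signal, it held (-3.44, adjusted p = 0.0153). At 1/25 the difference passed without replicate 2 of that group (adjusted p = 0.046) or replicate 3 of 1/5 for 24 h (0.0475). The latter array is not in the comparison, so the difference itself stayed at -2.57. The adjusted p at 1/5 ran from 0.000417 to 1.00 over 16 alternatives, the highest with array weights.

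Between 6 h and 24 h Fgl2 differed by -1.27, -2.54 (at least 3.16-fold lower) and -1.98 at 1, 1/5 and 1/25. On slide 4 it was -1.59 and within scan day 2 at 1/25 it was -3.20, which rests on replicate 1 of 1/25, the array without signal well above background. In the order of group means, untreated lay 0.58 above 1/25 for 6 h, just over the pooled spread of 0.54 within groups, and the 3 groups at 6 h differed from their neighbours by less than that. The lowest group at 6 h and concentration 1 for 24 h were 1.13 apart. Concentration 1 and 1/25 at 24 h differed by less than the spread, and 1/5 lay 0.99 below 1/25 with overlapping arrays. That last order has no settled direction: 1/5 minus 1/25 was 0.23 with slide or scan day as a fixed block and 0.014 with the normexp background. Both block fits rest on the 1 array of 1/25 on slide 5. On it, as on all 3 arrays of 1/5, the probe was not well above background, so the 0.23 gives no direction either. Both other Fgl2 probes were lower at 24 h at each concentration, by 0.93 to 1.38 for A_44_P144232 and by 1.17 to 1.95 for A_44_P179165, but they were well above background on only 3 and 6 of the 20 arrays.

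**Figure D3:**
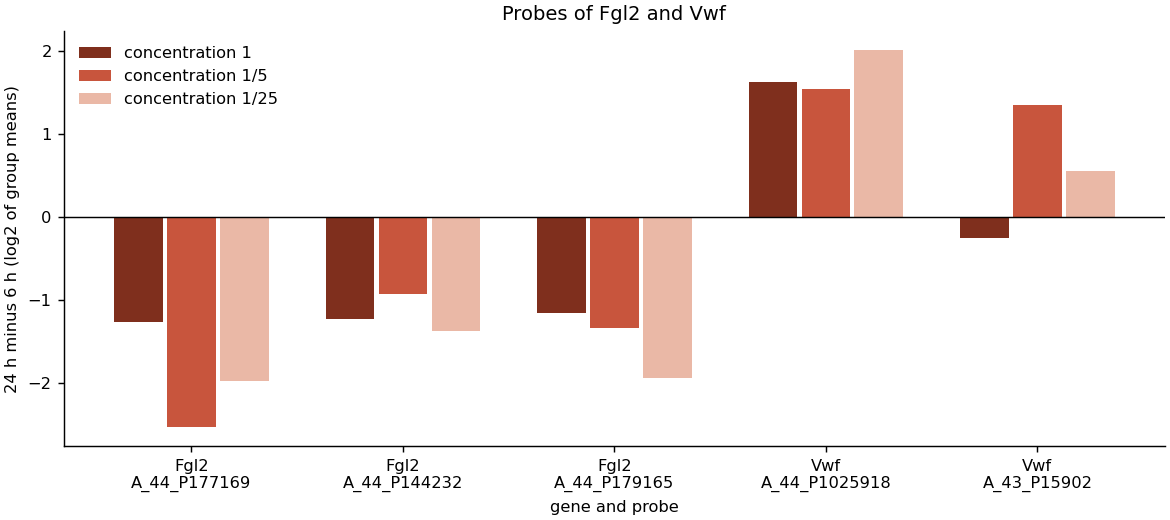
Difference of group means, 24 h minus 6 h, on the log2 scale (vertical axis) for each probe of Fgl2 and Vwf at concentration 1, 1/5 and 1/25 (dark to light bars). The 3 Fgl2 probes are below 0 at each concentration (-2.54 to -0.93), while the Vwf probes disagree at concentration 1 (1.62 and -0.25). Bars carry no error, since the genes were picked on this contrast.

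Vwf, the platelet-tethering protein of endothelium, gave a dim signal whose 2 probes did not move together. On the probe that stands for the gene, normalized signal was -3.49 and -6.23 in untreated cultures, and only the first of these arrays was well above background. At 6 h it ran from -7.63 to -5.06 with a median of -5.69, and at 24 h from -4.66 to -3.09 with a median of -4.36. All 9 arrays at 24 h lay above all 9 at 6 h, the contrast the set was picked on. Only 1 of 9 lay above both untreated arrays, and that was the array with the low overall signal. The probe was well above background on all 9 arrays at 24 h and on 5 of 9 at 6 h.

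Between 6 h and 24 h Vwf differed by 1.62, 1.54 and 2.01 on that probe, but -0.25, 1.34 and 0.55 on A_43_P15902. At 1/5, without the array with the low overall signal, it was 1.09 on the first probe and 0.60 on the second. On the first probe it was 1.06 on slide 4 and 2.50 within scan day 2 at 1/25. Against untreated cultures the differences at 24 h were 0.85, 0.87 and 0.48 (adjusted p of 0.999, 0.40 and 0.714 in limma's test), with a standard error of 0.718, and without that array the one at 1/5 was 0.42. Without untreated replicate 2 they turned to -0.52, -0.50 and -0.89, so no direction against untreated cultures can be given. No neighbours in the order of the 7 group means were further apart than the pooled spread of 0.84.

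Plat, the gene of tissue plasminogen activator, was lower at 24 h on most arrays, with a wide spread. Its normalized signal was -2.85 and -3.00 in untreated cultures. At 6 h it was -2.02, -2.25 and -2.03 at concentration 1, -3.57, -3.92 and -2.51 at 1/5, and -1.65, -4.53 and -3.13 at 1/25. After 24 h it was -2.89, -6.59 and -4.53 at concentration 1, -6.87, -4.76 and -6.31 at 1/5, and -7.80, -3.48 and -6.68 at 1/25. On 8 of 9 arrays at 24 h it lay below both untreated arrays and on 7 of 9 below all arrays at 6 h. The exceptions were replicate 1 of concentration 1 and replicate 2 of 1/25, whose values lay among those of 6 h. The probe was well above background on 4 of the 9 arrays at 24 h.

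Plat differed from untreated cultures by -1.75, -3.05 and -3.06 at 1, 1/5 and 1/25 for 24 h (standard error 1.13), and the adjusted p-values of limma's test were 0.999, 0.129 and 0.35. Leaving out replicate 2, the highest array at 1/5 and at 1/25, brought it past the threshold at 1/5 (-3.66, adjusted p = 0.0298) and at 1/25 (-4.32, adjusted p = 0.0464). In both groups that was the only array with the probe well above background, so both sizes are uncertain. From 6 h to 24 h Plat differed by -2.57, -2.64 and -2.88, and no neighbouring group means were further apart than the pooled spread of 1.37. Within scan day 2 at 1/25 it was -4.70, which rests on replicate 1 of 1/25 for 24 h, where the probe was not well above background. On slide 4 it was -1.54.

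Plau, which encodes urokinase, had no common course over the groups. Its normalized signal was -4.75 and -6.03 in untreated cultures and ran from -7.31 to -4.08 at 6 h. At 24 h it was -5.13, -4.88 and -5.55 at concentration 1, -3.34, -7.22 and -6.29 at 1/5, and -4.26, -3.49 and -3.76 at 1/25. The 3 arrays of 1/25 for 24 h were high and close together, whereas 1/5 held both the highest and nearly the lowest value of all arrays. The difference from untreated cultures at 1/25 for 24 h was 1.55 (95% interval -0.43 to 3.52, adjusted p = 0.437 in limma's test), and at 1 and 1/5 it was 0.20 and -0.23. The 24 h minus 6 h difference was 0.28, 0.69 and 1.90. It turned to -0.015 at concentration 1 without replicate 2 of 6 h and to -0.45 at 1/5 without replicate 1 of 24 h, while without the array with the low overall signal the one at 1/5 was 1.03, and that against untreated cultures 0.11. Of the 3, only the one at 1/25 kept its sign when single arrays were left out. On slide 4, whose 24 h and 6 h arrays are of different concentrations, the difference was -1.10, and within scan day 2 at 1/25 it was 1.48.

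Plaur, the receptor of urokinase, was lower at 24 h than in untreated cultures on 9 of 9 arrays, a separation in either direction that 9.4% of genes showed. Its normalized signal was -1.62 and -2.91 in untreated cultures. At 6 h it was -3.08, -2.35 and -2.62 at concentration 1, -3.66, -3.25 and -2.14 at 1/5, and -2.97, -3.89 and -3.18 at 1/25. After 24 h it was -3.84, -4.61 and -4.19 at concentration 1, -4.70, -6.00 and -5.91 at 1/5, and -4.96, -3.92 and -4.67 at 1/25. The 24 h values lay below all arrays at 6 h on 8 of 9 arrays. At 1/5 for 24 h only 1 of 3 arrays was well above background.

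At 1/5 for 24 h Plaur fell by 3.27 on the log2 scale against untreated cultures (standard error 0.541, adjusted p = 0.0195 in limma's test). The size is uncertain, since 2 of the 3 arrays were not well above background. At 1 and 1/25 it was lower by 1.95 and 2.26 (adjusted p = 0.627 and 0.227), and at 6 h by 0.42, 0.75 and 1.09. The call at 1/5 was lost without untreated replicate 1 (-2.63, adjusted p = 0.405) or replicate 2 (-3.92, 0.108), with the normexp background (-2.22, 0.0667), with the array median as scale (-2.75, 0.0555), with the deposited table (-2.76, 0.0561), with array weights (-3.73, 1.00) and with only the groups compared (0.561). It held in 9 of 16 alternatives. At 1/25 the difference passed without replicate 2 of that group (-2.55, adjusted p = 0.046). From 6 h to 24 h Plaur differed by -1.53, -2.52 and -1.17, with -1.03 on slide 4 and -1.61 within scan day 2 at 1/25. Untreated and the 6 h group means were closer to their neighbours than the pooled spread of 0.60, and the lowest of them lay 0.87 above the highest 24 h mean, with overlapping arrays.

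**Figure D4:**
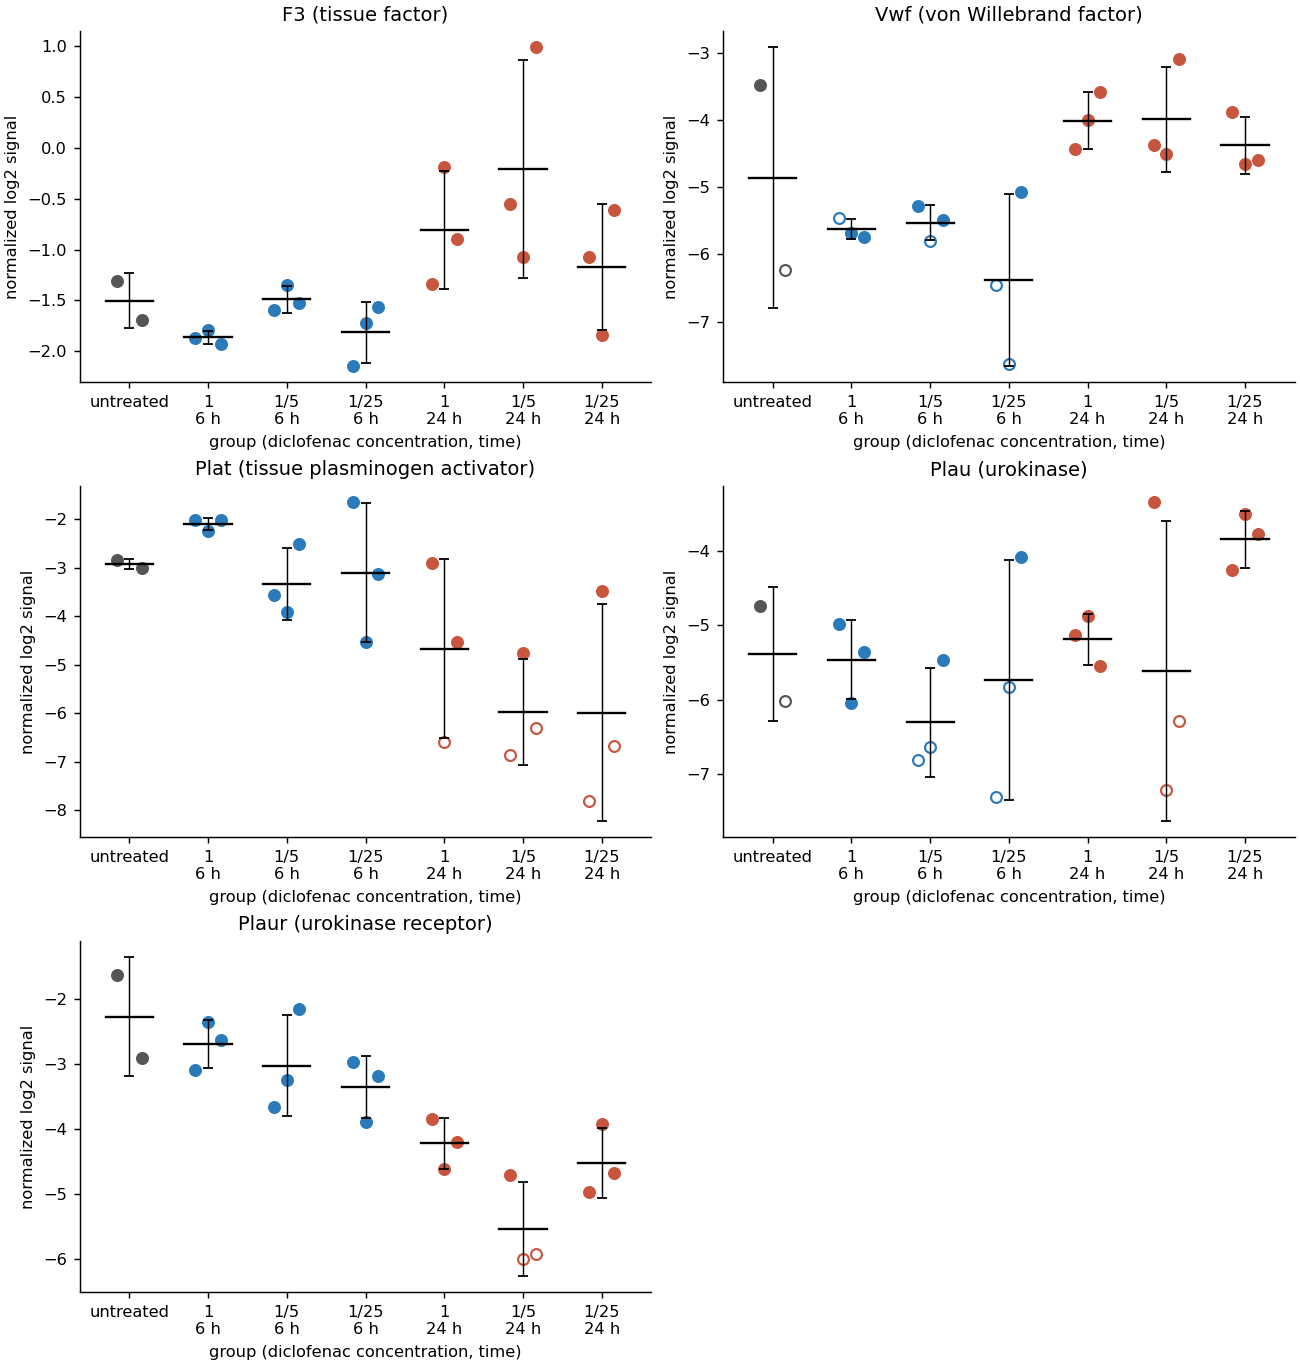
Normalized log2 signal (vertical axes) of F3, Vwf, Plat, Plau and Plaur on each array, by group, with grey for untreated, blue for 6 h and red for 24 h. Bars are group means with SD over 2 untreated or 3 treated arrays, and open symbols mark arrays where the probe was not well above background. The 24 h values of Plaur lie below both untreated arrays, those of Plat spread from -7.80 to -2.89, and the untreated values of Vwf lie far apart, at -3.49 and -6.23.

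The 3 concentrations did not separate any of the 7 genes at the threshold. Of 42 tests between concentrations, 0 passed in limma's test, 5 had an unadjusted p under 0.05 (7.27% of the tests of all genes did) and the lowest adjusted p was 0.114. The share of all genes called was 0.00656% for 1 against 1/5, 0% for 1/5 against 1/25 and 0.0197% for 1 against 1/25 at 6 h, and 0%, 0.00328% and 0.00328% for the same pairs at 24 h. The lowest p belonged to Fgl2 at 24 h, which was higher at concentration 1 than at 1/5 by 1.40 (95% interval 0.46 to 2.35, at least 1.44-fold on the processed signal). With the normexp background it was 0.12. At 24 h all arrays of concentration 1 lay on slide 4 and all of 1/5 on slide 5, so this difference cannot be told apart from one between slides. The 1 array of 1/25 on slide 5 had a Fgl2 value of -6.62, next to those of 1/5. Without replicate 2 of 1/5 for 24 h this difference passed (1.50, adjusted p = 0.0373). Plaur differed the same way, by 1.32 (0.30 to 2.34, adjusted p = 0.143). Thbd at 24 h differed between 1 and 1/5 by -0.11 (95% interval -0.82 to 0.61), between 1/5 and 1/25 by 0.07 (-0.64 to 0.79) and between 1 and 1/25 by -0.04 (-0.75 to 0.68). These intervals leave room for differences of up to 0.82 on the log2 scale. Without the array with the low overall signal the first 2 differences turned to 0.34 and -0.38, and that of F3 between 1 and 1/5 moved from -0.59 to 0.01.

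The change from 6 h to 24 h did not differ between concentrations for any of the 7 genes at the threshold. Of 21 interaction tests, 0 passed in limma's test and 0 had an unadjusted p under 0.05, beside 3.25% of the tests of all genes. The lowest adjusted p was 0.625, again for Fgl2 (1 against 1/5, a difference of 1.27 with a 95% interval of -0.06 to 2.60). The shares of all genes called were 0.00328% for 1 against 1/5, 0% for 1/5 against 1/25 and 0% for 1 against 1/25. For Thbd the change differed by -0.01, 0.23 and 0.23 over these pairs, with a standard error of 0.479.

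Thbd and Fgl2 ran against each other over the 20 arrays, with a Pearson correlation of -0.78, as the choice of the set implies. The 3 genes whose values followed Thbd most closely among 13106 named genes were Adgrl3, an adhesion G protein-coupled receptor (r = 0.952), and the aldo-keto reductases Akr1c15 (r = 0.931) and Akr1c1 (r = 0.914). Those nearest to Fgl2 were Il33, a cytokine of the interleukin family (r = 0.904), the DNA helicase Blm (r = 0.880) and Lct, which encodes lactase (r = 0.879). The arrays fall into 7 groups, share slides and include the array with the low signal, so these values are a description. After subtraction of group means the correlations were 0.78, 0.69 and 0.84 for Thbd and 0.46, 0.57 and 0.44 for Fgl2.

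Beyond the 7 genes, 49 others of coagulation and fibrinolysis were taken as 5 lists by role, and 38 of them were measured. In limma's test 0 of 38 were called in any of the 6 comparisons with untreated cultures or in the 3 of 24 h with 6 h, where 0.233%, 0.0984% and 0% of all genes were called at 1, 1/5 and 1/25. At an unadjusted p under 0.05, the 24 h minus 6 h counts were 9, 11 and 4 of 38, beside 13.8%, 33% and 9.91% of all genes. Against untreated cultures they were 5, 11 and 5 at 24 h, beside 4.56%, 30.4% and 13.4% of all genes. At 6 h they were 0, 1 and 0, beside 1.49%, 1.09% and 1.16%. The median of the 38 for 24 h minus 6 h was -0.58, -0.27 and -0.40 at 1, 1/5 and 1/25, beside -0.09, -0.09 and -0.01 for all genes. Single arrays decided the count at 1/5: without replicate 2 of 1/5 for 24 h, 13 tests of 24 h against 6 h and 12 against untreated cultures passed, all at 1/5. The share of all genes called without that array was not counted, so nothing particular to the lists is read from these counts.

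The procoagulant factors, 12 of 15 measured, were above 0 for 24 h minus 6 h in 1, 4 and 7 of 12 at 1, 1/5 and 1/25. F2, the gene of prothrombin, was lower by 1.63 at concentration 1 (adjusted p = 0.289 in limma's test), with -0.27 and 0.29 at 1/5 and 1/25, and Fgb, the fibrinogen beta chain, differed by 0.75 there (adjusted p = 0.307), but by -0.14 with the mean of its probes. Of the anticoagulant proteins, 7 of 10 were measured and 1, 2 and 2 of 7 were above 0. Procr encodes the endothelial receptor that presents protein C to the complex of thrombin and thrombomodulin. Its difference was -0.71, -1.48 and -1.38 (adjusted p = 0.406, 0.0866 and 0.326), opposite in sign to that of Thbd. Against untreated cultures Procr differed by -1.80 at 1/5 for 24 h (adjusted p = 0.0962), and by -2.09 without replicate 3 of that group (0.0467) or -1.88 without replicate 2 (0.0137). Proc, the gene of protein C itself, gave -0.67, 1.06 and 0.06.

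The fibrinolysis components, 8 of 9 measured, were above 0 in 3, 6 and 3 of 8. Serpine2, which encodes the protease inhibitor nexin, differed by 0.70, 0.09 and 0.86 for 24 h minus 6 h (adjusted p = 0.37, 0.869 and 0.451 in limma's test). The median of the list was -0.34, 0.23 and -0.37.

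Of the 4 thrombin and protease receptors, 1 was above 0 for 24 h minus 6 h at each concentration. F2rl2, the gene of a thrombin receptor, differed by -0.79, -1.22 and -0.88 (adjusted p = 0.29, 0.0917 and 0.437 in limma's test). F2r, the gene of the main thrombin receptor, gave 2.45, 2.26 and 0.69 with a standard error of 1.21, and the first was 0.34 without replicate 3 of concentration 1 for 6 h. Among von Willebrand factor partners and platelet genes, 7 of 11 were measured and 1, 2 and 3 of 7 were above 0. Thbs1, which encodes the platelet and matrix protein thrombospondin 1, differed by -5.33, -4.48 (at least 10.9-fold lower) and -3.07, with adjusted p of 0.137, 0.106 and 0.505. At 24 h its probe was well above background on 1, 0 and 1 of 3 arrays, so the sizes at 1 and 1/25 are uncertain too. Thbs1 passed at concentration 1 without replicate 2 of 1/25 for 6 h (adjusted p = 0.0248), an array outside that comparison, so the difference itself was unchanged. Itgb3, the integrin beta chain of the platelet fibrinogen receptor, gave -3.06 (adjusted p = 0.187), -3.51 (at least 4.20-fold lower) and -1.23.

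**Figure D5:**
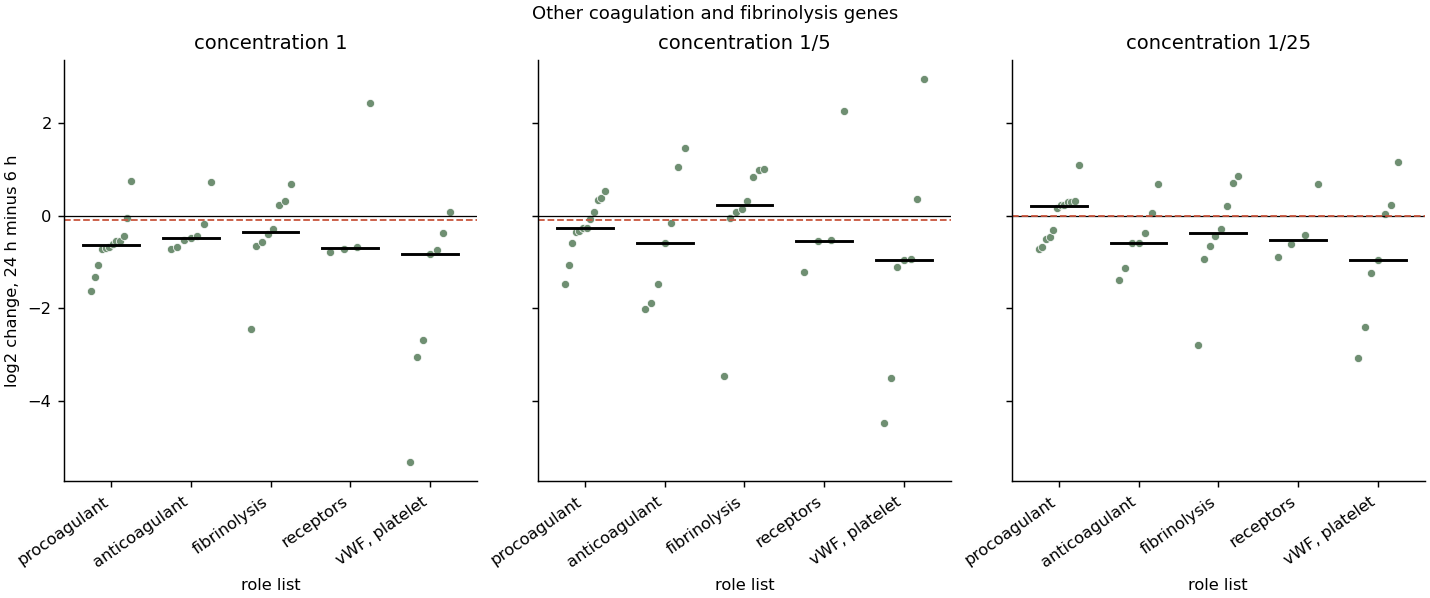
Log2 change, 24 h minus 6 h (vertical axis), of the 38 measured genes of the 5 role lists at concentration 1, 1/5 and 1/25 (panels), 1 point a gene. Black bars are list medians and the dashed red line is the median of all genes. No point passed the adjusted threshold. The lowest points at 1 and 1/5 are Thbs1 (-5.33 and -4.48), whose 24 h values were mostly not well above background.

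In RNA of whole cultures, fewer cells of a type and less RNA per cell cannot be told apart. Thbd and Vwf are known from endothelium, and 13 of 14 endothelium markers were measured, each well above background on some array of every group. The mean log2 level of these markers was -3.10 to -2.97 on the untreated arrays. At 6 h it was -2.84 to -2.61, -3.32 to -3.10 and -3.75 to -2.80 at 1, 1/5 and 1/25, and at 24 h -3.38 to -3.23, -3.34 to -2.84 and -3.56 to -3.08. For 24 h minus 6 h, 6, 8 and 7 of the 13 were above 0. Only Flt1 among them, a receptor of vascular endothelial growth factor, was called, and it was lower: by 3.26 at 1/5 for 24 h against untreated cultures (adjusted p = 0.0148 in limma's test) and by 2.57 for 24 h against 6 h at concentration 1 (adjusted p = 0.0311). At 1/5 for 24 h the Flt1 probe was well above background on 1 of 3 arrays, so the size there is uncertain. The mean of the 13 markers lay within or below its untreated range on 8 of 9 arrays at 24 h. What endothelium or other cells contribute to the Thbd and Vwf values was not tested.

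Fgl2 and Plaur are also known from macrophages, of whose markers 11 of 12 were measured. Their mean log2 level was -1.68 to -1.63 in untreated cultures and -2.39 to -1.40 over the 6 h arrays. At 24 h it was -2.09 to -1.62, -2.46 to -1.94 and -2.32 to -1.67 at 1, 1/5 and 1/25. None of the 11 was called in limma's test against untreated cultures at 24 h, with 1, 3 and 3 at an unadjusted p under 0.05 (4.56%, 30.4% and 13.4% of all genes), and 3, 4 and 5 of 11 were above 0. At 1/5 for 24 h, 1 of the 11 was well above background on no array. Of the mesothelium markers, 7 of 7 were measured, and Krt7, a keratin of lining cells, fell by 4.73 at 1/5 for 24 h (at least 14.8-fold lower, adjusted p = 0.0143). The median change of that list there was -0.58, beside -0.12 for all genes. In that comparison 0 markers of fibroblasts, smooth muscle and cardiomyocytes were called, with median changes of 0.89, -1.40 and 0.21 and with 5 of 9, 2 of 5 and 7 of 11 at an unadjusted p under 0.05, where 30.4% of all genes were. What these cell types contribute to the Fgl2 and Plaur values was not tested.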

How the data were processed

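Total RNA of 20 samples was hybridised to 1-colour Agilent rat arrays, and per the file headers the scanner intensities were background-subtracted and detrended within each array by Agilent Feature Extraction 9.5.3.1, with no scaling between arrays. In the series' own deposited table each probe's signal is a ratio to the array's median and to the mean of the 2 untreated arrays, as found by setting it against the scanner values, and served as an alternative.

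The log2 of the processed signal minus the array's 75th percentile over 43379 spots was used. Control and outlier spots were left out and spots of a probe averaged. Probes that all arrays of some group measured well above background were kept (35067 of 41012), and the brightest kept probe stood for its gene. RefSeq accession named 10735 probes, symbol 5577 and synonym 3730, and the other 20970 kept the file's name. limma 3.58.1 in R 4.3.3 fitted 7 group means over all 20 arrays for 18 comparisons, with Benjamini-Hochberg adjustment over all genes of each; the code was tested on simulated data. Python 3.11.15 with pandas 2.3.3, numpy 2.4.6 and matplotlib 3.10.9 made the summaries and figures. The precision is limited by 2 or 3 arrays a group.

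A lower bound on a fold was given where no array of a group measured the probe well above background, and it sets the group at the lowest well-measured signal of each array (or the probe's own, if higher). Members and lists were chosen with earlier results of these data known. All 7 members were named. From each role list, called genes came first and otherwise the 2 with the smallest unadjusted p for 24 h minus 6 h at concentration 1. A gene of this rule is not reported here. The called marker genes named were chosen after their values were seen. Likeness was Pearson's correlation over all arrays. Alternatives changed the background, scaling, probe filter, outlier flags, probe choice, table, samples in the fit, array weights, slide or replicate as a block, or left out an array.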

Additional observations from a re-analysis of the deposited data

How the results depend on the processing

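In all, 33 settings were tried, 20 of which left out 1 array, and the cause of the changes was not tested. Of 2116 alternative values of 115 tested results of single genes, 2024 counted as the same, 11 lost a call, 52 gained one, 2 reversed and 27 moved. The same meant an unchanged call, with the sign kept or changed by less than the standard error. It set no limit on size: Fgl2 at 24 h, 1 minus 1/5, counted as the same at 0.12 with the normexp background against 1.40. Moved meant a sign change by the standard error or more without a reversal. The sign changed without a reversal in 148, the 27 among them, so not all of the 2024 kept their direction. Against the 2 calls of the 7 genes against untreated cultures there was 1 with the normexp background, 1 with median scaling, 1 with the deposited table, 7 with slide as a random block, 12 with array weights, 0 with only the groups compared, and 0 to 5 when single arrays were left out. Between concentrations the count was 2 with slide as a random block, 11 with array weights and 0 to 1 with single arrays left out, and for concentration by time it was 2 with array weights. Of the role lists, 24 h against 6 h gave 1 call with normexp, 1 with quantile scaling, 19 with slide as a random block, 53 with array weights, 3 with only the groups compared and 0 to 13 without single arrays. Against untreated cultures the lists gave 12 with slide as a random block, 44 with array weights and 0 to 12 without single arrays. The correlation estimated within slides was -0.17, below 0, and array weights were estimated from 2 or 3 arrays a group, so the higher counts of these settings are weak support for more calls. The share of all genes called was not counted in the alternative settings. Whether any of these counts is particular to the 7 genes or the lists therefore cannot be said. With array weights Fgl2 at 24 h, 1 minus 1/25, reversed to -0.17 (adjusted p = 0.0216 in limma's test) and F3 to -0.27 (4.4e-06). The 24 h minus 6 h difference of Fgl2 was -0.71 at concentration 1 with quantile scaling. At 1/5 it was -1.03 with normexp and -1.94 with the mean of its probes. At 1/25 it was -1.38 with normexp, -1.39 with quantile scaling, -1.03 with array weights, -3.20 with scan day as a fixed block (chosen after seeing the data) and -2.52 to -1.37 without single arrays. That of Thbd at 1/5 was 2.45 with median scaling, 2.46 with the deposited table and 1.53 to 2.21 without single arrays. That of Plau was -0.045 at concentration 1 and -0.44 at 1/5 with array weights, and ran from -0.015 to 0.51 and from -0.45 to 1.49 without single arrays. Replicate numbers are shared across groups. For same-numbered arrays the median r was -0.04 over 57 pairs (-0.76 to 0.64), and for other pairs it was 0.04. With 2 or 3 arrays a group these values cannot decide whether equal numbers stand for a shared culture. With the replicate block the counts were 2 against untreated cultures, 0 between concentrations, 0 for concentration by time and 0 for the lists in both kinds of comparison. Probes not well above background limit what can be said of Fgl2, Plat, Plau, Plaur and Vwf at some groups.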
